A study of Mus musculus with 9 samples.

Results

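OT-I CD8 T cells primed in the gut-draining lymph node (MLN) were compared gene by gene with OT-I cells primed in the spleen. The comparison uses 6 of the 9 RNA sequencing libraries of the series, 3 MLN-primed and 3 spleen-primed, chosen by their sample titles and tissue labels. Of 23936 genes with a symbol, 10185 reached 1 FPKM in at least 3 of the 9 libraries and were tested. FPKM counts sequenced fragments per unit of transcript length and of library size.

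In OT-I mice the CD8 T cells carry 1 transgenic receptor, which sees an ovalbumin peptide presented by MHC class I. The 3 naive libraries, also OT-I cells from the spleen, serve as a reference level and share the estimate of the spread. The titles carry the word "iv" for spleen-primed and "oral" for MLN-primed cells, so organ and title word change together and their effects cannot be told apart. The labels give no strain, age, gate, number of animals or time after priming, and do not say that libraries of a group are separate animals, so p-values measure a spread between libraries that may be technical.

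CD8 T cells take on homing receptors according to the tissue in which they meet antigen. In nodes that drain the intestine, dendritic cells make retinoic acid, which induces the chemokine receptor CCR9 and intestinal integrins, whereas cells primed in the spleen tend to receive receptors for blood and inflamed tissue. Activated CD8 T cells also build up their machinery for growth, under the control of MYC and mTOR among others, and later divide this programme between effector and memory fates.

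The defining markers of CD8 T cells were present in all libraries, with a summed level of 4314 to 4411 FPKM in spleen-primed and 3051 to 3230 FPKM in MLN-primed libraries. Total FPKM were 613322 to 675385 over the 6 primed libraries, and read depth is unknown because FPKM do not keep it. Of the markers of other cells, Cd4 was at most 0.0915 FPKM, the NK cell receptor Ncr1 at most 0.0554 and the monocyte receptor Csf1r at most 0.254 in the primed libraries. Other listed markers were expressed: the myeloid Cd68 at 13.6 to 17.4 FPKM in spleen-primed and 7.21 to 8.24 in MLN-primed libraries. The NK marker Nkg7 was at 1512 to 1721 against 904 to 960 FPKM. Markers of dendritic cells and MHC class II summed to 159 to 166 against 111 to 124 FPKM, with Itgax at 89.7 to 103 against 34.1 to 46.1. Of these 12 markers 6 were tested, with 1 lower and 0 higher. Of the B cell markers 1 was tested, Cd79b, and it was higher in MLN-primed cells, at 6.29 to 7.93 against 11 to 14.4 FPKM, with 9 of 10 under 1 FPKM in every primed library. The summed FPKM of red cell and platelet markers varied within both groups, with a lowest and highest sum of 4.89 and 51.9 among the spleen-primed libraries and of 0.357 and 97.4 among the MLN-primed ones. Naive libraries, which share the estimate of the spread, held more of some markers. Cd74 was at 38.1 to 66.8 FPKM in them and at most at 3.29 in primed libraries, and S100a8 at 1.82 to 19.6 and at most 0.154. Cd68 was lower in naive libraries, at 0.669 to 1.54 FPKM. The part of such cells in the results was not tested. Long transcripts were read out unevenly within the groups: against the mean of the 6 primed libraries, log2(FPKM + 1) changed per doubling of transcript length by 0.0757 in spleen-primed 3 and by -0.0863 in MLN-primed 1. Mki67, a proliferation marker with a long transcript, was as low as 13.4 and as high as 87.1 FPKM among spleen-primed libraries, and between 8.32 and 84.1 FPKM among MLN-primed ones. The source of this range was not tested.

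MLN-primed cells held more RNA of the machinery that makes ribosomes, charges tRNA, folds and imports proteins, and makes cholesterol and nucleotides. They held less RNA of NK-type receptors, S100 and annexin genes, interferon-induced GTPases, MHC class I genes and trafficking receptors such as Cx3cr1 and S1pr5. At an adjusted p under 0.05 with limma, 3093 of 10185 genes (30.4%) differed, 1760 higher (17.3%) and 1333 lower (13.1%) in MLN-primed cells. The libraries of both groups did not overlap for 4695 genes (46.1%). With median-of-ratios scaling the split was 1376 higher and 1605 lower, so the balance of directions depends on the scaling, and without spleen-primed 2 the number of lower genes was 884.

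Most differences were small. The difference of log2(FPKM + 1), MLN-primed minus spleen-primed, had a median of 0.03 over all tested genes, and 80% of genes lay between -0.38 and 0.44. A difference of at least 1 was reached by 83 higher and 103 lower genes, and of at least 2 by 2 higher and 8 lower genes. The 2 higher genes were Ccr9 and the small nucleolar RNA gene Snora65. Snora65 was listed at 0 in the spleen-primed libraries and was at 9.91, 25.6 and 7.05 FPKM in the MLN-primed ones. FPKM of so short a transcript are uncertain. Calls were more frequent among abundant genes, from 18.1% of genes under 2 FPKM to 42.1% of genes at 100 FPKM or more.

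**Figure D1:**
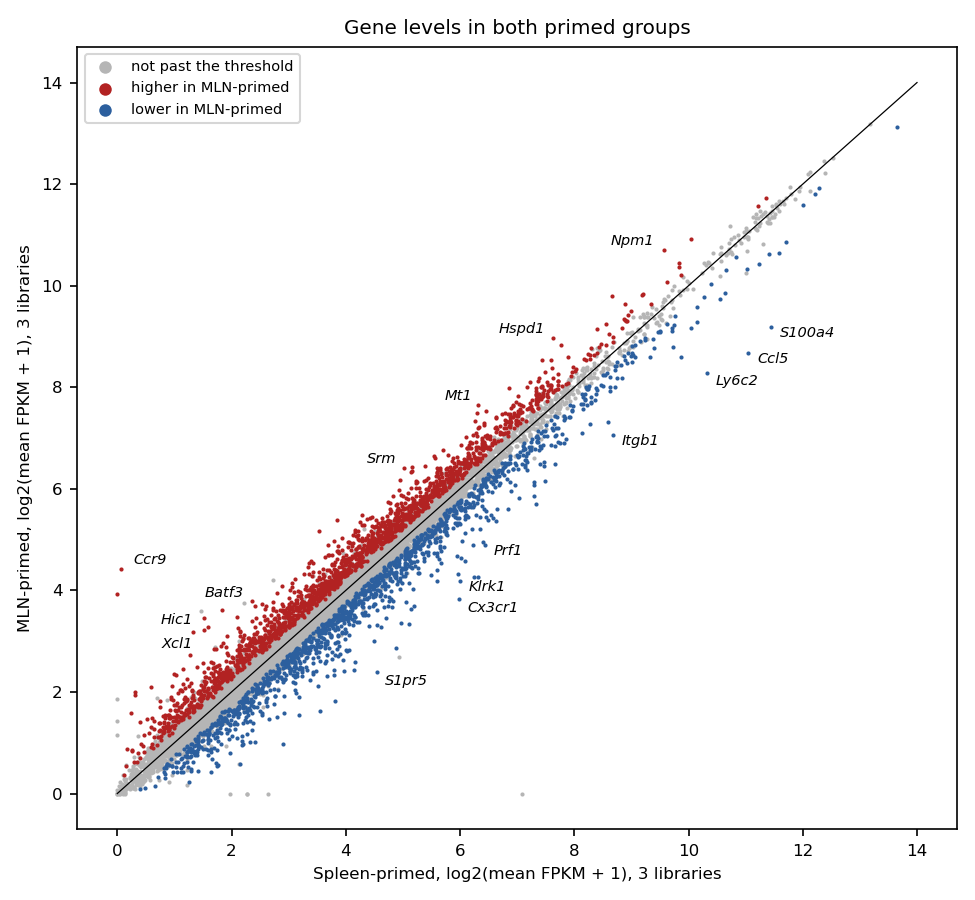
Mean level of each of the 10185 tested genes in spleen-primed (x axis) and MLN-primed libraries (y axis), as log2(mean FPKM + 1) over 3 libraries each, with genes past an adjusted p of 0.05 in colour and equal levels on the line. Ccr9 lies farthest above the line, near 0 on the x axis with the small nucleolar RNA gene Snora65, and the genes farthest below the line at high levels are S100a4, Ccl5 and Ly6c2.

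The genes with the largest differences were of unlike kinds. They were ranked among called genes without overlap that reached 5 FPKM in the higher group, leaving out small RNAs and predicted models. Among the 15 with the largest rise were the homing receptor Ccr9 (log2 difference 4.33), the transcription factors Hic1 (1.93) and Batf3 (1.79), carbonic anhydrase Car2 (1.84), the chemokine Xcl1 (1.69), the polyamine enzyme Srm (1.39), the metallothioneins Mt1 (1.35) and Mt2 (1.31), the mitochondrial chaperonin Hspd1 (1.35) and the nucleolar protein Mybbp1a (1.25). Among the 15 with the largest fall were the chemokine Ccl5 (-2.42), the calcium-binding S100a4 (-2.26), the receptors Cx3cr1 and S1pr5 (both -2.16), the surface proteins Ly6c2 (-2.08) and Ly6c1 (-2.02), and the semaphorin Sema4a (-2.04). Ly6c1 and Ly6c2 are near-identical copies, so how their fragments were divided is uncertain.

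Rangrf, a small cofactor of Ran-dependent nuclear transport, was also among the 15 and rose from 11.1, 10.4 and 9.98 FPKM in the spleen-primed libraries to 41.1, 31.8 and 32.1 in the MLN-primed ones (log2 difference 1.64 ± 0.10, SE; adjusted p = 1.31e-05). Batf3, a partner of AP-1 factors, was at 2.65, 1.8 and 3.23 FPKM against 12.7, 9.04 and 12.1 (1.79 ± 0.17; adjusted p = 8.59e-05). For both genes the lowest MLN-primed library lay above the highest spleen-primed one, which the ranking required. Rangrf overlaps Slc25a35 in the annotation, so its fragments may be shared. Naive cells held Rangrf at 10.3 to 10.8 FPKM, the level of spleen-primed cells, and Batf3 at 0.237 to 0.423 FPKM.

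**Figure D2:**
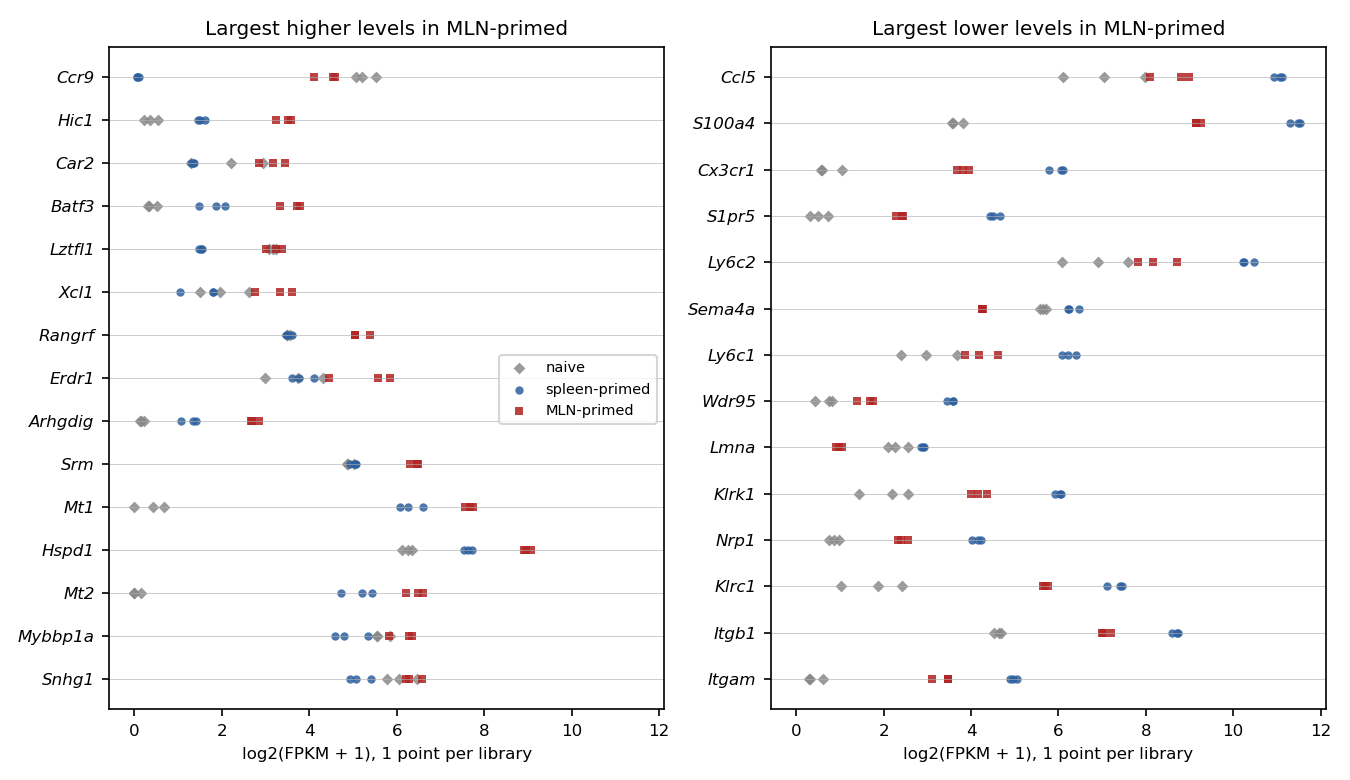
log2(FPKM + 1) in each library for the 15 genes with the largest rise (left) and 14 of the 15 with the largest fall (right) in MLN-primed cells, 1 point per library, with naive libraries as a reference. Spleen-primed and MLN-primed points do not mix in any row because only genes without overlap were ranked. Naive libraries lie near either group or apart from both, as for Mt1.

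The nucleolus stood out by the number of its genes that were higher. Of 105 nucleolar and ribosome biogenesis factors, all tested, 90 were higher and 0 lower in MLN-primed cells, with a median log2 difference of 0.57 beside 0.03 over all genes. Relative to the mean of the 6 primed libraries, the median of the list was -0.33, -0.33 and -0.23 in the spleen-primed libraries and 0.27, 0.28 and 0.33 in the MLN-primed ones, so no library stood between the groups.

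Npm1, the abundant nucleolar chaperone nucleophosmin, was at 769, 752 and 771 FPKM in spleen-primed and at 1763, 1536 and 1675 FPKM in MLN-primed libraries (1.11 ± 0.08; adjusted p = 2.12e-05). Fbl, the methyltransferase fibrillarin that modifies ribosomal RNA, was at 157, 163 and 174 against 292, 274 and 300 FPKM (0.81 ± 0.06; adjusted p = 3.53e-05). The 3 libraries of each group lay close together for both genes. Naive cells lay nearer to spleen-primed than to MLN-primed cells. They held 793 to 902 FPKM of Npm1, above spleen-primed cells, and 141 to 146 FPKM of Fbl, below them. Ncl, nucleolin, which binds the precursor of ribosomal RNA, was at 75.9, 69.8 and 114 against 142, 186 and 224 FPKM (1.09 ± 0.19; adjusted p = 0.00252).

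Members with different roles were among the 90. Polr1b, a large subunit of RNA polymerase I, was higher (0.81 ± 0.10), as were the pseudouridylation proteins Gar1 (1.05 ± 0.12) and Dkc1 (0.77 ± 0.09), the factors of the small subunit Rrp9 (0.85) and Pno1 (0.86), and those of the large subunit Mrto4 (1.10), Ppan (0.99) and Nop2 (0.98). Nolc1, which shuttles between nucleolus and cytoplasm, had a difference of 1.21 ± 0.31 (adjusted p = 0.0149), but its libraries overlapped: spleen-primed 3 was at 27.8 FPKM and MLN-primed 1 at 25.8. Nolc1 did not pass without any 1 of spleen-primed 1 or 2 or MLN-primed 2 or 3.

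Myc, which drives many of these genes, was at 11.7, 13.9 and 17.7 FPKM in spleen-primed and at 21.5, 26 and 25.2 FPKM in MLN-primed libraries (0.72 ± 0.14; adjusted p = 0.00407), and its partner Max was at 36.4 ± 2.19 and 35.8 ± 3.1 FPKM (SD, n = 3; adjusted p = 0.877). The core E-box bound by MYC, CACGTG, which reads the same on both strands, was present in the 250 bases before the start of 7 of 92 genes of the nucleolar list with a RefSeq promoter (7.61%), beside 10.3% of all 8247 tested genes with one. Those letters were therefore no more frequent in this window than elsewhere, which says nothing of binding by the factor.

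The proteins of the ribosome itself were not higher as a group. Of 80 cytosolic ribosomal protein genes, 2 were higher and 0 lower, with a median difference of 0.05. The 2 were Rpl26, at 177, 165 and 176 against 411, 343 and 357 FPKM (1.10 ± 0.11; adjusted p = 0.000151), and Rpl30, at 89, 88.2 and 77.8 against 180, 148 and 141 FPKM (0.86 ± 0.11; adjusted p = 0.000564). They were named after their values were seen, and ribosomal protein genes have many processed copies in the genome, so their values are uncertain. Rps27 shows this: spleen-primed 1 was at 80 FPKM, while the other primed libraries lay between 3.93 and 6.13. With quantile normalisation 30 of the 80 were higher and 2 lower, and with the length trend removed 13 were higher and 1 lower, so the level of this list relative to other genes depends on the scaling.

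Of the mitochondrial ribosomal proteins, which translate the mitochondrial genome, 45 of 76 were higher and 0 lower (median 0.29). Mrpl12, a stalk protein of the large subunit, was at 127, 122 and 112 against 207, 172 and 210 FPKM (0.70 ± 0.09; adjusted p = 0.000573), and Mrps18b (0.83) and Mrps5 (0.76) had the largest differences. With median-of-ratios scaling 27 were higher, and with quantile normalisation 32, close to the 30 of the cytosolic set. The difference between the sets was not tested.

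**Figure D3:**
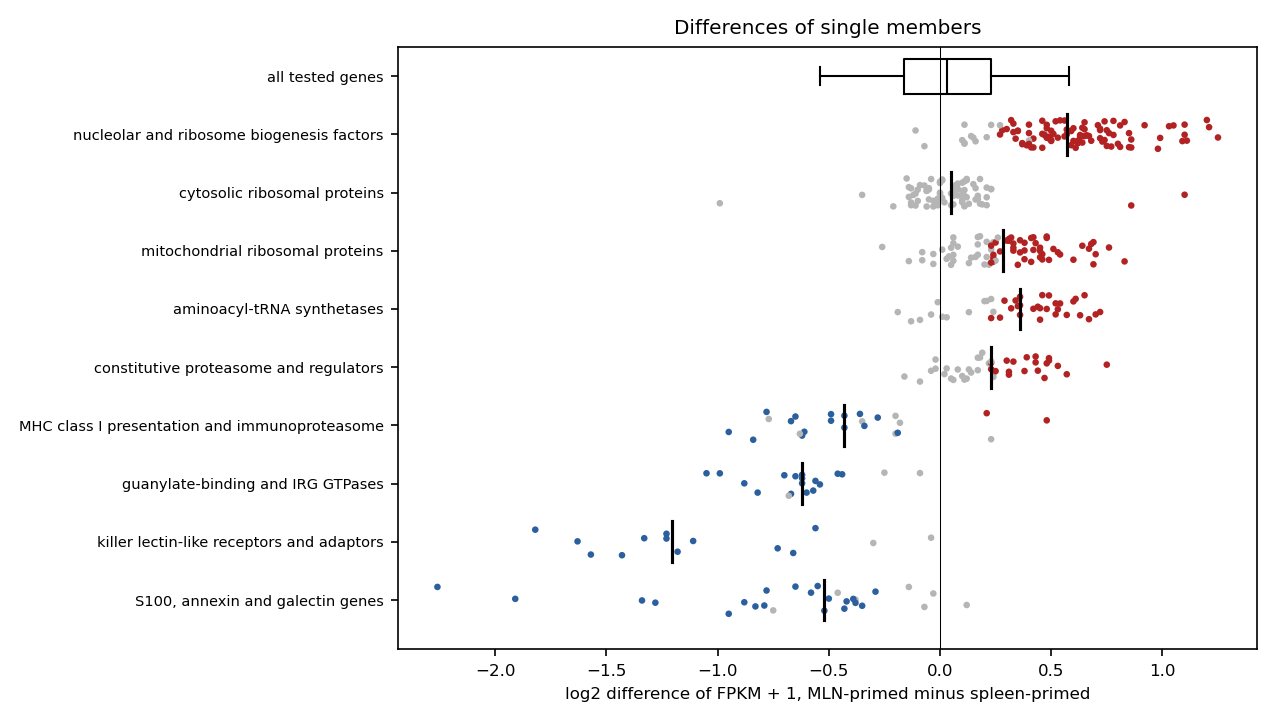
Difference of log2(FPKM + 1), MLN-primed minus spleen-primed, for each tested member of 9 gene lists (points; red higher, blue lower, grey not past the threshold; black bar, list median) and for all tested genes (box with quartiles, whiskers at 5% and 95%). Ribosome biogenesis factors lie to the right of 0 with a median of 0.57, cytosolic ribosomal proteins around 0.05, and killer lectin-like receptors to the left with a median of -1.20.

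Translation factors and the enzymes that charge tRNA were higher as well. Of 40 aminoacyl-tRNA synthetase genes 28 were higher and 0 lower (median 0.36), among them Eprs, which charges glutamate and proline tRNA, at 26.4, 26 and 35.4 against 41.5, 52.7 and 50.1 FPKM (0.70 ± 0.13; adjusted p = 0.00338). Of 51 initiation, elongation and release factors 28 were higher and 1 lower (median 0.32). Eif4a1, the helicase that unwinds messenger RNA, was at 613, 602 and 555 against 1023, 845 and 865 FPKM (0.62 ± 0.09; adjusted p = 0.000827), and the poly(A)-binding Pabpc4 was higher by 1.07 ± 0.09. The 1 lower member was Eif3f (-0.32 ± 0.07), a subunit of initiation factor 3, at 280 to 295 FPKM in spleen-primed and 212 to 247 in MLN-primed libraries.

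Genes upstream of translation moved the same way. Of 68 RNA polymerase, splicing and RNA export factors 46 were higher and 0 lower (median 0.39), led by Ipo4, an importin that carries ribosomal proteins and histones into the nucleus, at 6.17, 6.35 and 6.61 against 16.9, 15.1 and 15.8 FPKM (1.20 ± 0.08; adjusted p = 2.15e-05). The splicing regulator Hnrnpa1 (0.81 ± 0.09) and Ranbp1, which acts in the Ran cycle of nuclear transport (0.71 ± 0.07), were higher too.

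Polyamines are small cations needed for growth, and eIF5A carries hypusine, a residue made from spermidine. Srm, spermidine synthase, was at 32.8, 29.5 and 32.2 FPKM in spleen-primed and at 87.1, 78 and 88.2 FPKM in MLN-primed libraries (1.39 ± 0.08; adjusted p = 8.72e-06). Odc1, ornithine decarboxylase at the entry of the pathway, was higher by 0.90 ± 0.10, and Eif5a itself by 0.61 ± 0.09. Both enzymes that make hypusine were higher, Dhps by 0.46 and Dohh by 0.45. The catabolic enzyme Sat1 went the other way, from 33.3, 31.8 and 30.4 to 18.5, 17.7 and 19.5 FPKM (-0.75 ± 0.06; adjusted p = 5.94e-05). In all, 10 of 16 tested genes of the list were higher and 3 lower. The others of the 3 were the polyamine transporter Atp13a2 and the antizyme Oaz2. Neither passed without any 1 of spleen-primed 1 or 2 or the 3 MLN-primed libraries.

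Genes of serine and one-carbon metabolism and of nucleotide synthesis followed. The called share of amino acid transporters was near that of all tested genes. Asns, asparagine synthetase, was at 7.33, 6.51 and 7.49 against 18.5, 13.8 and 13.1 FPKM (0.98 ± 0.13; adjusted p = 0.000502). The serine hydroxymethyltransferases of cytosol and mitochondria, Shmt1 (0.97 ± 0.08) and Shmt2 (0.88 ± 0.08), and Mthfd2 (0.64 ± 0.09) were higher, and 12 of 26 tested serine, one-carbon and ATF4 response genes were higher and 2 lower. Of those 2, Ddit4, an inhibitor of mTOR complex 1 also known as REDD1, was at 20, 22.5 and 22.8 against 11.6, 12.7 and 12.5 FPKM (-0.78 ± 0.17; adjusted p = 0.00716).

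Slc7a5, the transporter of large neutral amino acids, was at 30.9, 32.2 and 35.8 against 55.9, 54.2 and 53.2 FPKM (0.71 ± 0.08; adjusted p = 0.000293). In all, 7 of 20 tested amino acid transporter genes were higher and 0 lower (35% called, beside 30.4% of all tested genes), with a median of 0.09. Without spleen-primed 2 or MLN-primed 3, 4 were higher. Of 46 tested genes of pentose phosphate and nucleotide synthesis 24 were higher and 3 lower (median 0.32), or 0 lower without spleen-primed 1, spleen-primed 2 or MLN-primed 3 and 1 without MLN-primed 2. Cad, which starts pyrimidine synthesis, was higher by 0.79 ± 0.10, and the purine enzymes Gart by 0.74 ± 0.08 and Pfas by 0.75. Glycolysis and HIF target genes were higher in 18 of 31 cases and lower in 1, the glucose transporter Slc2a3 (-0.38). Txnip, which limits glucose uptake, fell from 69.6, 80.7 and 72.1 to 28.2, 28.9 and 29.1 FPKM (-1.33 ± 0.09; adjusted p = 1.88e-05).

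Protein folding genes of cytosol and mitochondria were higher together. Hspd1 and Hspe1, the chaperonin of the mitochondrial matrix and its lid, share 1 locus on chromosome 1. Hspd1 was at 210, 185 and 196 against 535, 481 and 493 FPKM (1.35 ± 0.08; adjusted p = 1.08e-05), and Hspe1 at 245, 218 and 192 against 536, 382 and 447 FPKM (1.05 ± 0.14; adjusted p = 0.000537). The annotated genes overlap by 0.1 kb, so fragments there cannot be assigned to 1 of them where strand was not used. Of the cytosolic CCT ring and the mitochondrial chaperonins 17 of 24 genes were higher and 1 lower (median 0.46), with Cct6a at 0.86 ± 0.10. The lower one was the prefoldin subunit Pfdn5 (-0.42), which did not pass without any 1 of spleen-primed 1 or 2 or MLN-primed 2 or 3.

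HSP90, HSP70 and their cochaperones were higher in 23 of 42 cases and lower in 0 (median 0.45), with Hsp90aa1 at 449, 373 and 392 against 954, 860 and 868 FPKM (1.14 ± 0.10; adjusted p = 7.44e-05). The import machinery of mitochondria was higher in 23 of 39 cases and lower in 0. Its pore, Tomm40, was at 34.9, 34.8 and 39.6 against 71.6, 66.4 and 73.3 FPKM (0.93 ± 0.08; adjusted p = 7.17e-05), and the import motor Hspa9 at 73.8, 71.9 and 80.1 against 162, 154 and 168 FPKM (1.09 ± 0.07; adjusted p = 1.64e-05). Of 79 respiratory chain and ATP synthase subunits 14 were higher and 4 lower (17.7% and 5.06%, beside 17.3% and 13.1% of all genes), with a median of 0.08. Leaving out spleen-primed 3 and MLN-primed 1 together gave 13 higher and 20 lower, and median-of-ratios scaling 8 higher and 4 lower, while leaving out 1 primed library at a time gave 2 to 7 lower, with 7 without MLN-primed 1.

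Genes of sterol synthesis were higher, and genes that limit or export sterol were among the few lower ones. Of 36 tested cholesterol genes 19 were higher and 4 lower (median 0.37). Fdps, which makes farnesyl diphosphate, was at 48.9, 48.4 and 56.1 against 118, 106 and 100 FPKM (1.06 ± 0.08; adjusted p = 3.53e-05), Sqle, squalene epoxidase, at 17.2, 16.6 and 17.5 against 32.5, 33 and 32.6 FPKM (0.90 ± 0.07; adjusted p = 4.86e-05), and Idi1, isopentenyl diphosphate isomerase, at 28.9, 30.4 and 31.8 against 63, 56.9 and 54.2 FPKM (0.91 ± 0.14; adjusted p = 0.00121). The 4 lower genes were Mylip, a ubiquitin ligase that degrades the LDL receptor (4.08, 3.75 and 4.19 against 0.747, 1.11 and 1.21 FPKM), the exporter Abcg1 (-0.89 ± 0.12), the lysosomal carrier Npc2 (-0.70 ± 0.08) and the sterol receptor Nr1h2 (-0.32). Mylip and Abcg1 are targets of the LXR receptors, to which Nr1h2 belongs. Nr1h2 did not pass without any 1 of spleen-primed 2 or 3 or MLN-primed 1 or 2.

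The promoters of the sterol genes shared a short motif. The CCAAT box, CCAAT or its complement ATTGG, which recruits the factor NF-Y, lay in the 250 bases before the start of 22 of 26 cholesterol genes with a RefSeq promoter (84.6%), beside 41.7% of all tested genes with one and 37% of the nucleolar list. The sterol element TCACCCCAC was found in 1 of the 26 (3.85%, all tested genes 0.618%). Idi1 and Mvd, the latter higher by 0.40 ± 0.09, are shown as examples, 5′ to 3′ on the coding strand and ending at the base before the start, with CCAAT boxes in capitals (RefSeq, build GRCm38.p6; Idi1 at chr13:8885356-8885605 on the plus strand, Mvd at chr8:122443423-122443672 on the minus strand).
Idi1: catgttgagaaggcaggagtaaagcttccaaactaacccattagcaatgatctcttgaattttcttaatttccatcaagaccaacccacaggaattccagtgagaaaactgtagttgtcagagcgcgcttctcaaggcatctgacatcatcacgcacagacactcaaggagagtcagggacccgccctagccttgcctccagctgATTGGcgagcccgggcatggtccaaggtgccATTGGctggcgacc
Mvd: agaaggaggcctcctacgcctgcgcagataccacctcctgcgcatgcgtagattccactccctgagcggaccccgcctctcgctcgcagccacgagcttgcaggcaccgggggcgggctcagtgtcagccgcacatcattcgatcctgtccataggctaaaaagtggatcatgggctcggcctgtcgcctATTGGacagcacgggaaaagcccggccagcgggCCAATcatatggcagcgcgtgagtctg
In Idi1 the boxes begin 45 and 14 bases before the start, and in Mvd 60 and 27 bases before it.

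Fatty acid genes were higher in 11 of 40 cases and lower in 3 (27.5% and 7.5%, beside 17.3% and 13.1% of all genes). Scd1, the stearoyl-CoA desaturase, was at 0.824, 1.08 and 1.93 against 3.31, 3.34 and 3.1 FPKM (0.93 ± 0.15; adjusted p = 0.00146), Fads2, another desaturase, rose by 1.41 ± 0.18 and fatty acid synthase, Fasn, by 0.82 ± 0.16. The fatty acid-binding protein Fabp5, which also carries retinoic acid, was at 80.1, 81.9 and 71.1 against 201, 165 and 174 FPKM (1.20 ± 0.11; adjusted p = 9.59e-05). Slc27a4, a fatty acid transporter, was lower (-0.80).

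The 3 metallothioneins, which bind zinc and copper, lie side by side on chromosome 8. Mt1 was at 75.3, 66 and 95.7 against 212, 203 and 188 FPKM (1.35 ± 0.17; adjusted p = 0.000504), Mt2 at 35.7, 25.6 and 42.4 against 88.3, 96 and 72.8 FPKM (1.31 ± 0.17; adjusted p = 0.000502), and Mt3 at 29.2, 23.4 and 26.2 against 65.4, 47.6 and 43.4 FPKM (0.95 ± 0.15; adjusted p = 0.00123). Naive libraries were at most at 0.607 FPKM for any of the 3. The zinc exporter Slc30a1, which is induced with metallothioneins by the metal sensor MTF1, was at 1.5 and 1.54 FPKM on average and did not pass the test. Of the 22 genes of this list 6 were higher and 0 lower (27.3% called, beside 30.4% of all tested genes). With the 6 primed libraries alone 10 were higher.

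Genes of DNA replication and of mitosis differed in their counts. Of 54 replication genes 25 were higher and 0 lower (median 0.25), among them Orc1, of the origin recognition complex, at 10.1, 10.1 and 9.28 against 16.7, 16.3 and 15.4 FPKM (0.66 ± 0.08; adjusted p = 0.000452). Cyclin E1, Ccne1, which drives entry into S phase, was higher (0.69 ± 0.08). Of 71 mitosis and spindle genes 5 were higher and 0 lower (median 0.06). The higher shares were 46.3% of replication and 7.04% of mitosis genes, beside 17.3% of all tested genes. With median-of-ratios scaling 12 replication genes were higher, and 16 without spleen-primed 2. The mitosis count was unstable: 0 were higher without spleen-primed 2, without MLN-primed 2 or with a pseudocount of 0.1, 1 without MLN-primed 3, 2 without spleen-primed 1 or with median-of-ratios scaling, 3 without spleen-primed 3, MLN-primed 1 or naive 3, and 19 without spleen-primed 3 and MLN-primed 1 together.

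Cyclins, their kinases and the inhibitors moved in both directions: 7 of 31 were higher and 10 lower (median -0.03), or 4 higher without spleen-primed 2. The 7 and 10 genes were 22.6% and 32.3% of the list, beside 17.3% and 13.1% of all tested genes. Btg1, an antiproliferative factor, was at 21.2, 24.1 and 21.7 against 8.24, 9.33 and 9.29 FPKM (-1.23 ± 0.07; adjusted p = 1.18e-05), and the CDK4 and CDK6 inhibitor Cdkn2d at 85.4, 90.7 and 83.8 against 44.4, 46.7 and 48.9 FPKM (-0.88 ± 0.06; adjusted p = 2.15e-05). Cdkn2c (-0.67), Cdkn1b (-0.56) and the pocket protein Rbl2 (-0.43) were lower as well.

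**Figure D4:**
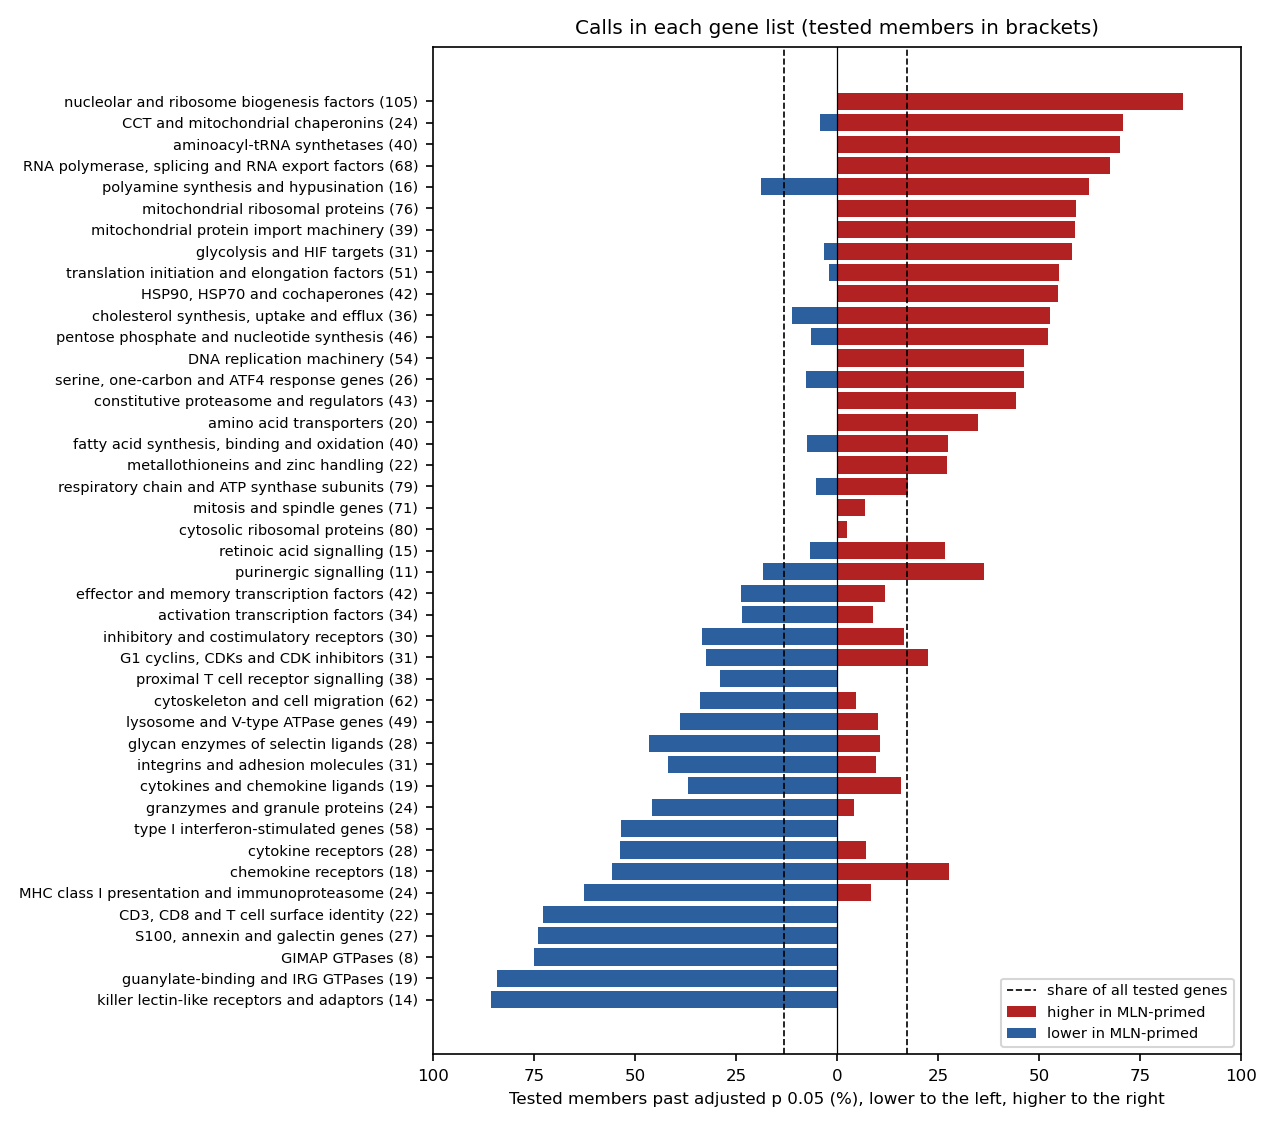
Share of tested members of 43 gene lists that were higher (right) or lower (left) in MLN-primed cells at an adjusted p under 0.05, with the number of tested members in brackets and the share of all tested genes as dashed lines (17.3% higher, 13.1% lower). Growth and folding lists fill the upper right, with 85.7% of nucleolar factors higher, and surface receptor and interferon lists the lower left, with 85.7% of killer lectin-like receptors and adaptors lower.

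Ccr9, the receptor for the small intestinal chemokine CCL25, separated the groups more than any other protein-coding gene. It was at 0.0349, 0.0807 and 0.0419 FPKM in spleen-primed and at 16.3, 22.9 and 22.2 FPKM in MLN-primed libraries (4.33 ± 0.15; adjusted p = 7.94e-07). The scale of log2(FPKM + 1) understates this difference, as spleen-primed cells were near 0. Naive cells were at 44.8, 32.5 and 35.7 FPKM, above both primed groups. Itgae, the CD103 chain that pairs with integrin beta 7, was at 0.217, 0.214 and 0.304 against 3.1, 3.2 and 2.71 FPKM (1.68 ± 0.14; adjusted p = 4.57e-05), with 18.1 to 27.6 FPKM in naive cells. For both receptors MLN-primed cells thus lay between naive and spleen-primed cells.

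Of the 29 genes of the retinoic acid list 15 were tested, with 4 higher and 1 lower (33.3% called, beside 30.4% of all tested genes). The higher ones were Ccr9, Hic1, P2rx7 and Fabp5. Hic1, a zinc finger repressor that retinoic acid induces in T cells, was at 1.81, 1.72 and 2.04 against 8.37, 10.4 and 10.9 FPKM (1.93 ± 0.12; adjusted p = 1.45e-05). Hic1 overlaps Smg6 by 3.1 kb in the annotation, so fragments may be shared. Smg6 was at 6.03 to 8.73 against 6.15 to 10.7 FPKM and did not pass. The receptor gene Rara was lower, at 10.9, 12.3 and 16.6 against 5.32, 7.65 and 7.91 FPKM (-0.84 ± 0.16; adjusted p = 0.0043). With median-of-ratios scaling 4 members were higher and 4 lower.

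The 250 bases before the Ccr9 start, at chr9:123766961-123767210 on the plus strand (RefSeq, GRCm38.p6), are given because the gene carries the largest difference.
Ccr9: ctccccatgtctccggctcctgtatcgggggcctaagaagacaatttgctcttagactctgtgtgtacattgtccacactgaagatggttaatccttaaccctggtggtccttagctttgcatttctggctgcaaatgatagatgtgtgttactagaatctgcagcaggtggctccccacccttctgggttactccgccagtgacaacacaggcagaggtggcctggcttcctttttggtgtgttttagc
A pair of retinoid receptor half-sites, AGGTCA or GGGTCA repeated directly with 1, 2 or 5 bases between them, on either strand, is not in this window. Such pairs were found before the start of 0 of 12 genes of the retinoic acid list with a promoter and of 0.218% of all tested genes with one, so the search window holds few of them anywhere.

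The gene next to Ccr9 on chromosome 9 shared its pattern. Lztfl1, a regulator of ciliary protein transport, lies 49.6 kb from Ccr9 on the opposite strand. It was at 1.93, 1.87 and 1.77 FPKM in spleen-primed and at 7.07, 9.39 and 8.4 FPKM in MLN-primed libraries (1.69 ± 0.10; adjusted p = 1.31e-05), with 7.38 to 8.43 FPKM in naive cells. Fyco1, 6 kb away on the other side, was at 0.46 to 1.62 FPKM in spleen-primed and at 0.254 to 1.33 FPKM in MLN-primed libraries and did not pass the test (adjusted p = 0.923). Within 500 kb, Ccr9, Lztfl1 and the predicted gene Gm10052 were higher, and the chemokine receptor genes Cxcr6, which lies within Fyco1, and Ccr2 were lower.

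Ccr2, a receptor for inflammatory chemokines, was at 81.9, 86.6 and 83.3 against 30.9, 31.9 and 26.8 FPKM (-1.46 ± 0.13; adjusted p = 7.47e-05). Differences of opposite sign therefore lay within 1 cluster of chemokine receptor genes. Cxcr6 had a difference of -0.34 ± 0.11 with overlapping libraries, and did not pass without any 1 of spleen-primed 1 or 2, MLN-primed 2 or 3, or naive 3.

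P2rx7, a channel opened by extracellular ATP that retinoic acid induces, was at 0.26, 0.154 and 0.309 against 2.42, 3 and 3.08 FPKM (1.62 ± 0.09; adjusted p = 1.01e-05). Its neighbour on chromosome 5, P2rx4, a related channel, was at 0.888, 0.853 and 0.99 against 2.73, 2.38 and 3.12 FPKM (0.97 ± 0.09; adjusted p = 0.000103). P2rx4 overlaps Camkk2, which had 5.03 and 5.79 FPKM on average and did not pass, so fragments may be shared there too. Nt5e, CD73, which makes adenosine from AMP, was at 1.46, 0.917 and 1.28 against 4.2, 4.5 and 4.66 FPKM (1.30 ± 0.20; adjusted p = 0.00114). The enzyme upstream of CD73, Entpd1 or CD39, went the other way (2.98 and 1.72 FPKM on average; -0.55). Of 11 tested purinergic genes 4 were higher and 2 lower (36.4% and 18.2%, beside 17.3% and 13.1% of all tested genes). With a pseudocount of 0.1, 3 were higher and 1 lower. With a filter of 5 FPKM 4 were tested, with 0 higher and 0 lower.

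**Figure D5:**
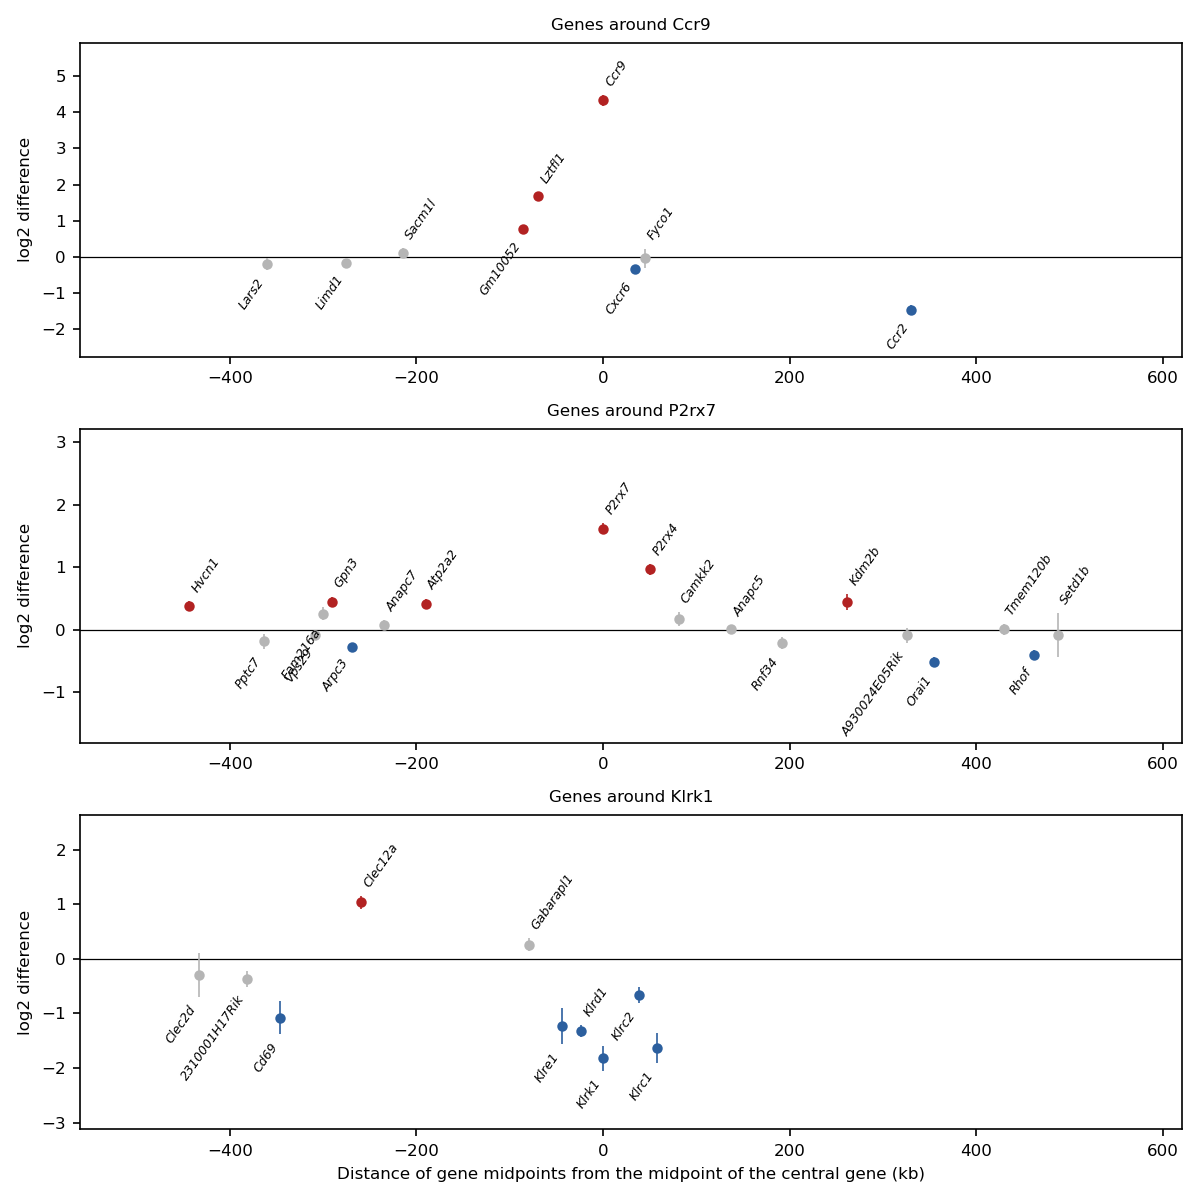
Difference of log2(FPKM + 1), MLN-primed minus spleen-primed, with its standard error, for genes within 500 kb of Ccr9, P2rx7 and Klrk1, placed by the distance between gene midpoints (red higher, blue lower, grey not past the threshold). Lztfl1 and P2rx4 sit beside Ccr9 and P2rx7 with differences of 1.69 and 0.97, and the 5 Klr genes of the Klrk1 window, Klrk1 included, are all lower.

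The nearest neighbours of all genes with the largest differences, Ccr9 and Lztfl1 included, were counted too. The 15 genes with the largest rise had 29 nearest tested neighbours, of which 14 were higher and 1 lower, and the 15 with the largest fall had 29, of which 14 were lower and 3 higher, beside 17.3% higher and 13.1% lower among all tested genes. Among the higher neighbours, Ccr9, Lztfl1, Mt1 and Mt2 are ranked genes themselves. Among the lower ones, Ly6c1, Ly6c2, Sema4a, Lmna, Nrp1 and Itgb1 are. Their calls were fixed by the ranking, and some other neighbours overlap a ranked gene, as Hspe1 does Hspd1. The counts therefore cannot be compared directly with the shares of all tested genes. Sema4a and Lmna lie 20 kb apart on chromosome 3 and were at 73.3, 75.2 and 87.4 against 18.3, 18.2 and 18.2 FPKM (-2.04 ± 0.08) and at 6.52, 6.57 and 6.28 against 1.06, 0.886 and 0.984 FPKM (-1.91 ± 0.11). Lmna encodes lamin A of the nuclear envelope, and Sema4a a semaphorin of activated T cells. Nrp1 and Itgb1 are the nearest tested genes to each other on chromosome 8, 180.2 kb apart, and fell by 1.71 and 1.62 on the log2 scale. Itgam and Itgax, on chromosome 7, lie 11 kb apart.

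Receptors for migration and adhesion were more often lower than higher. Of 18 tested chemokine and related receptors 5 were higher and 10 lower, and of 31 integrins and adhesion molecules 3 were higher and 13 lower. Without spleen-primed 1 or MLN-primed 3, 3 of the chemokine receptors were higher, and without spleen-primed 1 or 2 or MLN-primed 2 or 3, 1 of the adhesion molecules was. Besides Ccr9, the receptor Gpr15, which guides T cells to the large intestine, was at 1.21, 0.919 and 0.958 against 3.55, 4.9 and 3.71 FPKM (1.31 ± 0.14; adjusted p = 0.000196). Cx3cr1, the fractalkine receptor of vascular effector cells, was at 65.6, 67.4 and 54.3 against 11.9, 14.6 and 13.1 FPKM (-2.16 ± 0.14; adjusted p = 1.69e-05). S1pr5, a sphingosine phosphate receptor, was at 21.6, 24.4 and 20.8 against 4.32, 3.87 and 4.47 FPKM (-2.16 ± 0.12; adjusted p = 8.72e-06). In naive cells both were at or below 1.06 FPKM.

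Itgb1, integrin beta 1, was at 419, 424 and 389 against 147, 128 and 126 FPKM (-1.62 ± 0.08; adjusted p = 4.56e-06), while integrin beta 7, Itgb7, had 499 FPKM on average in spleen-primed and 438 FPKM in MLN-primed libraries and integrin alpha 4, Itga4, 160 and 143, neither past the test. Itgam, the CD11b chain, was at 28.7, 30.2 and 32 against 7.63, 10.1 and 10.2 FPKM (-1.61 ± 0.13; adjusted p = 3.62e-05). Itgam is also a myeloid marker: the summed level of the myeloid markers was 45.4 to 48.5 FPKM in spleen-primed and 15.4 to 18.6 FPKM in MLN-primed libraries, 2 of the 4 tested markers were lower, 8 of 11 were under 1 FPKM in every primed library, and Lyz2 was at most at 1.7 FPKM. Fewer cells of a type and less RNA per cell cannot be told apart in bulk RNA.

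Enzymes that build selectin ligands followed the same direction. Fut7, the fucosyltransferase that completes the ligand of P- and E-selectin, was at 5.92, 5.95 and 5.92 against 2.29, 1.51 and 1.74 FPKM (-1.29 ± 0.11; adjusted p = 5.94e-05), and the sialyltransferase St3gal6 was lower (-0.71). Of 28 tested glycan enzymes 3 were higher and 13 lower, or 1 higher and 8 lower without spleen-primed 2 and 1 higher without MLN-primed 2.

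Most of the NK-type receptors were lower. Of 30 killer lectin-like receptors and adaptors 14 were tested, and 12 of these were lower and 0 higher (median -1.20), or 8 lower with a pseudocount of 0.1. Klrk1, which encodes the activating receptor NKG2D, was at 64.3, 59.7 and 65.6 against 19.6, 15 and 17 FPKM (-1.82 ± 0.23; adjusted p = 0.000465). Its adaptor DAP10, Hcst, was at 160, 167 and 140 against 58.5, 54.3 and 57.7 FPKM (-1.43 ± 0.09; adjusted p = 1.69e-05). Receptor and adaptor were lower by like amounts, although naive cells held Hcst at 259 to 318 FPKM and Klrk1 at 1.71 to 4.88.

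The inhibitory pair CD94 and NKG2A was lower too. Klrd1 was at 182, 197 and 156 against 74.3, 65.9 and 70.2 FPKM (-1.33 ± 0.11; adjusted p = 5.52e-05), and Klrc1 at 174, 170 and 137 against 53, 50.4 and 49.1 FPKM (-1.63 ± 0.28; adjusted p = 0.00195). Klrc1 and Klrc2 are similar in sequence, so the much lower value of Klrc2 (3.98 and 2.13 FPKM on average) is uncertain. Klrg1, a mark of short-lived effector cells, was at 173, 164 and 134 against 77.4, 59 and 62.6 FPKM (-1.23 ± 0.24; adjusted p = 0.00439), and the inhibitory Fc receptor Fcgr2b at 3.25, 3.69 and 3.38 against 0.433, 0.453 and 0.599 FPKM (-1.57 ± 0.10; adjusted p = 1.64e-05). Cd160, also an NK-type receptor, did not pass, at 36.1 ± 1.17 and 35.1 ± 1.7 FPKM (SD, n = 3). The summed level of the NK markers was 3565 to 4575 FPKM in spleen-primed and 2606 to 2966 FPKM in MLN-primed libraries, carried by Gzma and Nkg7, and Ncr1 was near 0 as given above.

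Granule genes were lower in part. Prf1, perforin, was at 89.7, 89.8 and 78 against 30.7, 28.2 and 27.2 FPKM (-1.55 ± 0.08; adjusted p = 7.16e-06), the lysosomal protease Ctsd at 980, 975 and 864 against 408, 374 and 374 FPKM (-1.28 ± 0.07; adjusted p = 8.72e-06) and Gzmm at 27.6, 27.5 and 20.2 against 9.92, 8.25 and 11.6 FPKM (-1.25 ± 0.26; adjusted p = 0.00571). Gzma was at 2822, 2748 and 2016 against 1993, 1733 and 1686 FPKM and did not pass (adjusted p = 0.172). Of 24 tested granule genes 1 was higher, Gzmf, and 11 were lower, and of 49 lysosome and V-type ATPase genes 5 were higher and 19 lower. Leaving out any 1 primed library left 2 or 3 lysosome genes higher, with 2 without spleen-primed 1 or 2.

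Chemokine and cytokine genes moved in both directions. Ccl5 was at 1966, 2236 and 2152 against 273, 447 and 505 FPKM (-2.42 ± 0.40; adjusted p = 0.00166), and Ccl4, another inflammatory chemokine, at 9.99, 7.7 and 6.64 against 2.01, 2.2 and 3.95 FPKM (-1.31 ± 0.31; adjusted p = 0.00983). Xcl1, which attracts cross-presenting dendritic cells, was at 2.48, 1.06 and 2.46 against 11.2, 5.75 and 9.07 FPKM (1.69 ± 0.32; adjusted p = 0.00353), and Mif at 493, 457 and 465 against 863, 761 and 753 FPKM (0.75 ± 0.07; adjusted p = 9.1e-05). In all, 3 of 19 tested genes were higher and 7 lower, or 4 lower without spleen-primed 3 or MLN-primed 3.

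S100, annexin and galectin genes, listed with Lmna and LIM domain genes of effector cells, were mostly lower: 20 of 27 tested genes were lower and 0 higher (median -0.52). S100a4 was at 2971, 2883 and 2515 against 612, 564 and 569 FPKM (-2.26 ± 0.09; adjusted p = 1.06e-06), with 10.9 to 13.2 FPKM in naive cells. The phospholipid-binding annexin Anxa1 was at 106, 95.9 and 93.1 against 46.1, 40.2 and 34.6 FPKM (-1.28 ± 0.20; adjusted p = 0.00126), and Crip1, an abundant LIM domain protein, at 3481, 3518 and 2988 against 2003, 1786 and 1803 FPKM (-0.83 ± 0.09; adjusted p = 0.000196). S100a6 was at 2068, 2050 and 2013 against 1220, 1231 and 1184 FPKM. Although the primed libraries of S100a6 did not overlap, it did not pass (adjusted p = 0.11). Its naive libraries, which share the estimate of the spread, ranged from 9.41 to 31.3 FPKM, and it passed when the 6 primed libraries were fitted alone. Of 62 cytoskeleton and migration genes 3 were higher and 21 lower, or 11 lower without spleen-primed 2.

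The proteasome divided. Of 43 subunits, regulators and assembly factors of the constitutive proteasome 19 were higher and 0 lower (median 0.23), with the lid subunit Psmd7 at 81.2, 83.1 and 82.6 against 127, 119 and 122 FPKM (0.57 ± 0.06; adjusted p = 0.000178). The inducible subunits of the immunoproteasome were lower, Psmb9 at 298, 302 and 253 against 221, 185 and 200 FPKM (-0.49 ± 0.09; adjusted p = 0.00295) and Psmb10 by the same amount (-0.49 ± 0.07; adjusted p = 0.000695), while Psmb8 at 455 and 397 FPKM on average did not pass (adjusted p = 0.0775).

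MHC class I genes fell with the immunoproteasome. B2m, the light chain, was at 2669, 2809 and 2630 against 1575, 1635 and 1512 FPKM (-0.78 ± 0.07; adjusted p = 7.92e-05), H2-K1 at 860, 917 and 776 against 460, 419 and 441 FPKM (-0.95 ± 0.08; adjusted p = 6.64e-05), and H2-D1 at 1046, 1232 and 1107 against 638, 615 and 629 FPKM (-0.84 ± 0.09; adjusted p = 0.000167). Class I heavy chain genes are close copies of each other, so their single values are uncertain. The peptide pump Tap1 was lower (-0.62 ± 0.07), and 15 of 24 tested genes of the list were lower. The 2 higher members, Canx (0.48 ± 0.07) and Pdia3 (0.21), are general folding factors of the endoplasmic reticulum, and Pdia3 did not pass without any 1 of spleen-primed 2 or 3 or any MLN-primed library. Nlrc5, the transactivator of class I genes, was at 9.06, 11.4 and 16 against 4.88, 8.54 and 9.3 FPKM, with overlap, and did not pass (adjusted p = 0.0698).

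Interferon-induced GTPases were lower in nearly every tested case. Of 24 guanylate-binding and immunity-related GTPase genes 19 were tested, with 16 lower and 0 higher (median -0.62). Gbp2 was at 22.5, 24.2 and 26.6 against 10.8, 13.2 and 11.6 FPKM (-0.99 ± 0.09; adjusted p = 6.91e-05), and Ifi47 at 107, 103 and 88.7 against 52.1, 48.6 and 42.5 FPKM (-1.05 ± 0.13; adjusted p = 0.000406). Igtp (-0.60 ± 0.14; adjusted p = 0.0112) and Irgm1 (-0.62 ± 0.14; adjusted p = 0.00888) were lower as well. Members of these families are similar to each other, and some models overlap, so fragments may be divided among them.

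The promoters of these genes were the richest of the lists examined in the interferon element GAAANNGAAA, or its complement TTTCNNTTTC. It lay in the 250 bases before the start of 10 of 13 GTPase genes with a RefSeq promoter (76.9%) and of 16 of 45 interferon-stimulated genes (35.6%), beside 3.4% of all tested genes with a promoter and 0 of 11 and 0 of 12 promoters of the genes with the largest rises and falls. The GTPase list was added to this count after its values were seen. Gbp2 (chr3:142620413-142620662, plus strand), Irgm1 (chr11:48871421-48871670, minus strand) and Igtp (chr11:58199306-58199555, plus strand) are shown 5′ to 3′ up to the base before the start, from RefSeq, GRCm38.p6, with the element in capitals.
Gbp2: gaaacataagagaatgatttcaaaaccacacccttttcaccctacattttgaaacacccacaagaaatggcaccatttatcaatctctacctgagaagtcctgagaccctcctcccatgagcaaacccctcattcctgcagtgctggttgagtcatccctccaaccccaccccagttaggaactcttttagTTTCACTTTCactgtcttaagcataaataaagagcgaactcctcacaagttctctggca
Irgm1: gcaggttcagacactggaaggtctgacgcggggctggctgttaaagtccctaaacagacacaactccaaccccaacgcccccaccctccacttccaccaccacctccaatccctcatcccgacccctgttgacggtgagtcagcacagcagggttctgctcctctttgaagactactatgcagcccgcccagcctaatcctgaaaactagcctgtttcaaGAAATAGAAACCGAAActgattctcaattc
Igtp: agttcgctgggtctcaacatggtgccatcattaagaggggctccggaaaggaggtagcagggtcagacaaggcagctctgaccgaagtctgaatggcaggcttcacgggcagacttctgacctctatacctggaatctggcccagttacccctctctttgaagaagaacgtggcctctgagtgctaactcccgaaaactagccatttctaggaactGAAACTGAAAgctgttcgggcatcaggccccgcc
The element begins 59 bases before the start in Gbp2 and 34 in Igtp, and Irgm1 holds overlapping copies from 30 and 24 bases before it.

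Other interferon-stimulated genes were lower in 31 of 58 tested cases and higher in 0 (median -0.44). Zbp1, a sensor of Z-form nucleic acids, was at 45.2, 48.7 and 47.9 against 16.7, 21.9 and 22 FPKM (-1.20 ± 0.11; adjusted p = 9.77e-05), and Pyhin1, of the HIN-200 family, at 33.5, 33.1 and 36.8 against 10.3, 11.5 and 12.5 FPKM (-1.51 ± 0.10; adjusted p = 1.69e-05). Naive cells held Pyhin1 at 85.9 to 108 FPKM, above both primed groups. Of the GIMAP GTPases of lymphocyte survival 6 of 8 were lower. Of the Schlafen family 3 of 7 tested genes were lower and 0 higher (42.9% called, beside 30.4% of all tested genes). In this family 4 differences were above 0 and the median was 0.03. Slfn1, the member with the largest difference, fell from 12.1, 15 and 16.2 to 4.23, 5.88 and 5.37 FPKM (-1.33 ± 0.14; adjusted p = 0.000189).

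Receptors for cytokines were lower in 15 of 28 tested cases and higher in 2. Both subunits of the IL-18 receptor were lower, Il18r1 at 57.7, 44.7 and 81.6 against 18.5, 19.3 and 19.6 FPKM (-1.59 ± 0.22; adjusted p = 0.00072) and Il18rap at 60.3, 63.5 and 69.9 against 29.6, 32.5 and 29.4 FPKM (-1.06 ± 0.21; adjusted p = 0.00454). The IL-2 receptor split by chain. Il2ra, the alpha chain that raises affinity, was higher, at 11.7, 10 and 15.7 against 22.3, 26.9 and 25.4 FPKM (0.96 ± 0.14; adjusted p = 0.00101), the common gamma chain Il2rg was lower (-0.58 ± 0.07), and the beta chain Il2rb, at 332 and 326 FPKM on average, did not pass. Il10ra (-0.88 ± 0.09), Ifngr1 (-0.54 ± 0.07) and the kinase Jak1, shared by many of these receptors, were lower, Jak1 at 187, 202 and 215 against 97.2, 129 and 117 FPKM (-0.82 ± 0.10; adjusted p = 0.000365).

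Il2ra also belongs to the markers of regulatory T cells, as does Tnfrsf4, OX40, at 0.543, 1.01 and 0.491 against 2.56, 2.57 and 2.54 FPKM (1.09 ± 0.12; adjusted p = 0.000176). Naive libraries held Tnfrsf4 at 0.343 to 0.531 FPKM. It passed the filter of 1 FPKM only through the MLN-primed group, where it is high, so its p-value is given as description. The summed level of the 8 CD4 and regulatory T cell markers was 23.9 to 33.4 FPKM in spleen-primed and 38 to 46.8 FPKM in MLN-primed libraries. Foxp3, which defines regulatory T cells, was at 0.781 to 0.88 FPKM in spleen-primed and 0.719 to 0.811 FPKM in MLN-primed libraries.

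Transcription factors moved in both directions. Eomes was at 22.8, 25 and 29.4 against 11.4, 11.5 and 12.8 FPKM (-1.04 ± 0.17; adjusted p = 0.00141), Id2 at 312, 288 and 320 against 153, 161 and 145 FPKM (-1.0 ± 0.21; adjusted p = 0.00544), and Zeb2, which acts with T-bet in terminal effector cells, at 3.64, 3.63 and 4.57 against 1.7, 2.43 and 2.54 FPKM (-0.62 ± 0.12; adjusted p = 0.00456). Myb, known for the self-renewal of stem-like T cells, was higher, at 4.4, 4.16 and 6.37 against 9.48, 9.1 and 10.4 FPKM (0.85 ± 0.17; adjusted p = 0.00418). Of 42 effector and memory factors 5 were higher and 10 lower (35.7% called, beside 30.4% of all tested genes). Over the alternatives 6 to 17 were lower, with 6 without spleen-primed 2. Of 34 activation factors 3 were higher and 8 lower (32.4% called). Among the 8 were Irf9 (-0.93), Irf7 (-0.81) and the inhibitor of NF-kappaB Nfkbia (-0.79). The called shares of both lists were thus near that of all tested genes.

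Genes of T cell identity were lower in 16 of 22 tested cases and higher in 0 (median -0.44). Cd2, an adhesion and costimulatory receptor, and the abundant surface glycoprotein Cd52 had differences of -1.27 and -0.96. Cd8a, at 204 and 178 FPKM on average, did not pass. Cd8b1 was at 847 to 874 FPKM in spleen-primed and 572 to 625 in MLN-primed libraries, and Cd3d at 299 to 345 against 199 to 232. Of the 10 CD8 T cell markers 7 were lower and 0 higher. Proximal receptor signalling genes were lower in 11 of 38 cases and higher in 0 (median -0.19), with Lck at -0.39 and the kinase Txk at -0.74. Their called share of 28.9% was near the 30.4% of all tested genes. Of 30 costimulatory and inhibitory receptors 5 were higher and 10 lower. Leaving out 1 primed library left 2 to 5 higher, with 2 without spleen-primed 1 or 2 and 3 without any 1 MLN-primed library. Pdcd1, which encodes PD-1, was lower by a small amount (32.8 and 25.2 FPKM on average; -0.36) and did not pass without spleen-primed 2 or MLN-primed 2, while Lag3 (27.3 and 26.3 FPKM) and Havcr2 (52.4 and 51.9 FPKM) did not pass.

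Cd69, a receptor that retains T cells in tissue and is induced on activation, was lower in MLN-primed cells, at 11.8, 11.2 and 11.2 against 4.06, 4.54 and 6.24 FPKM (-1.08 ± 0.30; adjusted p = 0.0232). It did not pass without any 1 of spleen-primed 1 or 2 or MLN-primed 1 or 2. Naive cells had a mean of 85 FPKM of Cd69, above both primed groups. Of 32 tested candidates for resident memory 9 were higher and 6 lower (median 0.03), or 3 lower without spleen-primed 2. The 9 and 6 genes were 28.1% and 18.8% of the list, beside 17.3% and 13.1% of all tested genes. Ccr9, Itgae and Cd69 did not share a direction.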

How the data were processed

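The series holds 9 RNA sequencing libraries of OT-I cells, 3 each of naive, spleen-primed and MLN-primed cells, grouped by title and tissue label. The authors deposited FPKM per gene. TopHat, Cufflinks and the mm10 build are named per the submitters' processing notes, but their versions, and whether strand was used, are not given in the sources. A second deposited table held identical bytes and was not used.

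Genes with a symbol and at least 1 FPKM in 3 of 9 libraries were kept (10185), and log2(FPKM + 1) was fitted over all 9 libraries with limma 3.58.1 in R 4.3.3, with a mean-variance trend and Benjamini-Hochberg adjustment at 0.05. Differences are MLN-primed minus spleen-primed, and the pseudocount of 1 understates those of low genes. A gene low elsewhere could pass the filter through the group in which it was high. On simulated data with 200 changed genes, the fit recovered 54.5% of log2 changes of 0.5, 91.2% of 1 and 99.1% of 2, and 5.08% of its calls were false. The simulated noise was independent between genes. In the real libraries deviations were shared among genes, as with transcript length, and 30.4% of genes were called. The simulated rates therefore need not hold for these data. The number of libraries limits precision, and no read depth can be had from FPKM.

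Genes are named by rank (15 each way, past the threshold, without overlap, 5 FPKM in the higher group, no small RNAs or predicted models), as leading or defining members of gene lists, or as stated beside them. Members and lists were chosen with earlier results of these data known, so a list's count is no independent evidence of its direction. Promoters and positions came from RefSeq, GRCm38.p6, for 8247 and 10167 of the tested genes. Summaries used Python 3.11.15 with numpy 2.4.6 and pandas 2.3.3, and plots matplotlib 3.10.9. Alternatives were other pseudocounts, filters, scalings and variance priors, removal of the length trend, a replicate block and leaving out libraries. A few genes are not reported here.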

Additional observations from a re-analysis of the deposited data

How the results depend on the processing

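Under the alternatives with all 9 libraries or all 6 primed libraries and no replicate block, 1376 to 1946 genes were higher and 1189 to 1605 lower. Median-of-ratios scaling gave 1376 higher and 1605 lower, so 46.2% of calls were higher instead of 56.9%, and moved the median of all genes from 0.0282 to -0.0194. Quantile normalisation gave 1553 and 1461. Leaving out 1 library at a time gave 1255 to 1807 higher and 884 to 1389 lower genes, with both lowest values without spleen-primed 2. Without spleen-primed 3 and MLN-primed 1 together the counts were 2517 and 1375.

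With a replicate block the counts were 1942 higher and 1440 lower over 9 libraries, and 2220 and 1688 over the 6 primed ones. Deviations of same-numbered primed libraries correlated by 0.645, -0.24 and 0.485, so the numbers are not taken as pairs, and the library correlating best with MLN-primed 2 and 3 was spleen-primed 3 for both.

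No named gene past the threshold reversed its direction under these alternatives. With a pseudocount of 0.1 Ccl4, Entpd1, Klrc2, Klrg1 and Mt1 did not pass, and Erdr1 did not without MLN-primed 2 or 3. Camkk2, Gzma, Itgb7, Mki67, Nlrc5, Psmb8, S100a6 and Smg6 passed under some alternatives. Differences of genes near 1 FPKM are limited by the unknown depth.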
